A study of Mus musculus with 6 samples.

Results

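The genes described here are the membrane carriers that bring sugars, monocarboxylates such as lactate, and amino acids into and out of cells. They were chosen by symbol alone: every gene of the Slc1a, Slc2a, Slc5a, Slc6a, Slc7a, Slc16a, Slc36a, Slc38a and Slc43a families, with Slc3a1 and Slc3a2, the heavy chains of the heteromeric amino acid transporters. The deposited table held 91 such genes among 17794. Expression was measured by RNA sequencing of whole mouse cornea in 6 libraries. All animals had experimental dry eye, brought about with benzalkonium chloride (BAC), a detergent used as an eye drop preservative, and were then treated for 10 days with vehicle (3 libraries) or with luteolin, a plant flavone (3 libraries). The labels give no strain, genotype, age, dose or route, and do not say whether a library is 1 cornea or a pool of animals. The p-values below therefore rest on library-to-library spread alone, and part of that spread could be technical. Corneas without BAC damage were not analysed here, so every difference is between 2 damaged groups.

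The cornea has no blood vessels, and its cells depend on carriers to take up glucose from the aqueous humour and to move the lactate they make. GLUT carriers of the Slc2a family let glucose pass down its gradient, sodium-coupled carriers of the Slc5a family can concentrate sugars and other solutes, and the proton-linked carriers of the Slc16a family move lactate and pyruvate. Amino acid carriers overlap in substrate: the LAT carriers exchange large neutral amino acids, among them leucine, for glutamine, and sodium-coupled carriers such as SNAT and ASCT supply the glutamine. The level of a transcript is not a measure of transport.

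Of the 91 genes, 63 had enough reads to test and 28 did not. Transcripts of 25 fell and 10 rose with luteolin, and 28 did not pass a Benjamini-Hochberg adjusted p of 0.05 in edgeR's quasi-likelihood test. Large decreases were in the lactate carriers Slc16a1 and Slc16a3, the amino acid exchangers Slc7a5 and Slc7a6, the cationic amino acid carrier Slc7a2, the glutamine carrier Slc1a5 and the serotonin carrier Slc6a4. Increases were mostly smaller and included the sodium-coupled monocarboxylate carrier Slc5a8 and the glucose carrier Slc2a12. A very large part of the whole transcriptome differed: 58.9% of 13838 tested genes passed, against 55.6% of the tested transporters, so the share that passed is near the background. By direction, the background was 30.4% lower and 28.5% higher. Decreases of over 1 on the log2 scale were called in 16 transporters and in 15.1% of all tested genes, and such increases in 3 transporters and in 4.61% of all tested genes. The median log2 fold change, luteolin minus vehicle, was -0.28 over the tested transporters and -0.02 over all tested genes. Library ranges of CPM (counts scaled to the library size, with TMM factors) did not overlap for 28 transporters that were lower and 13 that were higher. The background for that was 33.7% and 33.8% of all tested genes.

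**Figure D1:**
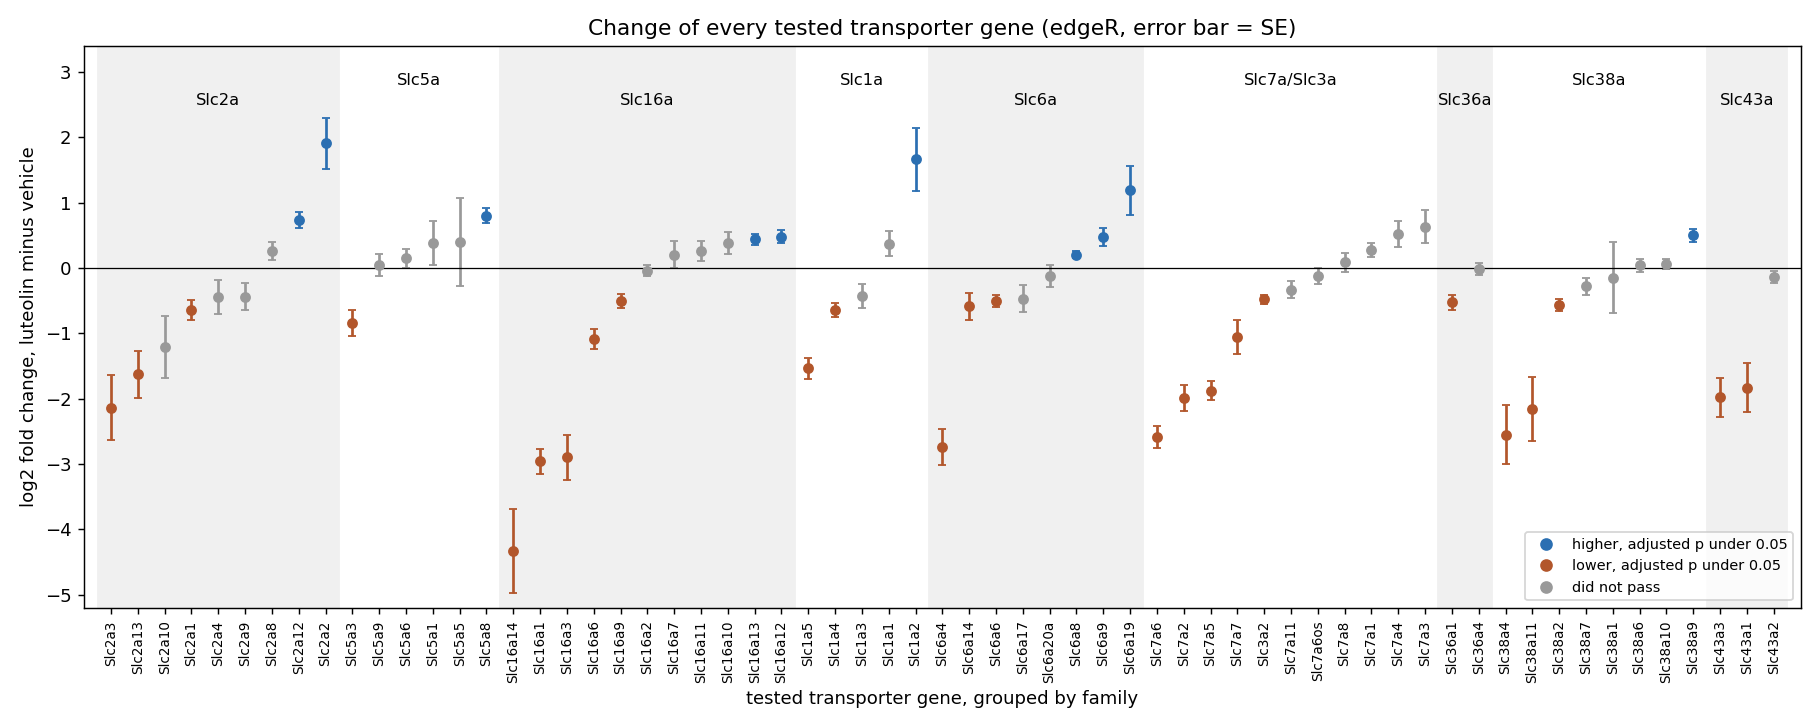
Log2 fold change (vertical axis, luteolin minus vehicle, error bar SE) of the 63 tested transporter genes, grouped by family along the horizontal axis and coloured by the edgeR call. Values run from -4.33 for Slc16a14 to 1.91 for Slc2a2, and the larger changes are mostly decreases.

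The calls were more stable for decreases than for increases when libraries were left out 1 at a time. Of the 25 lower genes 24 kept their call without any 1 library, Slc6a14 being the exception. Of the 10 higher genes 6 did, and Slc1a2, Slc6a8, Slc6a9 and Slc6a19 did not; without luteolin 2 only 6 transporters were called higher. The median over the transporters was -0.16 without vehicle 2. With library sizes in place of TMM factors 31 transporters were lower and 9 higher, while the median of all tested genes moved from -0.02 to -0.13 and the share of all calls that were lower from 51.6% to 63.6%.

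Total counts per library ran from 16084855 to 16469699. The corneal epithelial keratins and other epithelial markers were abundant in every library. The summed CPM of 12 markers was 54068 to 61896 with vehicle and 81368 to 83917 with luteolin, and 10 rose. The 1 that fell was the keratin Krt14, from 6540, 3223 and 5865 CPM to 325, 449 and 478 CPM (log2 fold change -3.64, SE 0.292). Markers of macrophages, neutrophils, vessels and conjunctiva were mostly lower with luteolin, and those of corneal epithelium mostly higher. The remaining lists had mixed calls, few calls or few tested genes. The background over all tested genes was 30.4% lower and 28.5% higher. Of 12 macrophage and dendritic cell markers 10 fell and 1 rose (summed CPM 553 to 933 against 237 to 294). The 1 that rose, Itgam, made up most of the luteolin sum. It was at 126, 136 and 162 CPM with vehicle and 182, 218 and 213 CPM with luteolin. All 6 tested neutrophil markers fell (59.3 to 124 against 6.12 to 14.03), with S100a8, Ly6g, Retnlg and Mmp8 at 0 with luteolin. Of 12 vessel markers 11 fell (177 to 298 against 44.3 to 51.1). Of 12 keratocyte markers 4 fell, near the background share, and 1 rose (4672 to 10024 against 2270 to 4819). Of 6 conjunctival markers 4 fell (4202 to 4500 against 1800 to 2783). Skeletal muscle markers followed libraries rather than groups, with a summed CPM of 109 in vehicle 1, 187 in vehicle 2 and 14.9 in vehicle 3, against 17.6 in luteolin 1, 17.03 in luteolin 2 and 87.8 in luteolin 3; none of the 9 tested passed. Nerve and glial markers had a summed CPM of 139 to 167 with vehicle and 243 to 247 with luteolin (1 of 6, the myelin gene Mbp, rose, from 66.3 to 75.1 CPM with vehicle to 204 to 207 CPM with luteolin and made up most of the luteolin sum; 3 fell), and 2 of 9 corneal endothelial markers fell. Both tested lymphocyte markers and the 1 tested adipocyte marker fell, and the 1 tested erythroid marker rose. In whole tissue, fewer cells of a type and less RNA per cell cannot be told apart. The part of these cell types in the transporter results was not tested.

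For part of the transporters RefSeq promoter sequence was at hand, and the stretches of genes described below are shown because they hold a motif tied to sugar and lactate transport or to amino acid supply. The motif ACGTG is a form of the core that hypoxia-inducible factors bind, and TTGCATCA is a core of the amino acid response element bound by ATF4. Each stretch is the 250 bases before the transcription start in build GRCm38.p6, written 5′ to 3′, with the motif in capitals on whichever strand it lies.
Slc16a1, chr3:104638414-104638663, + strand: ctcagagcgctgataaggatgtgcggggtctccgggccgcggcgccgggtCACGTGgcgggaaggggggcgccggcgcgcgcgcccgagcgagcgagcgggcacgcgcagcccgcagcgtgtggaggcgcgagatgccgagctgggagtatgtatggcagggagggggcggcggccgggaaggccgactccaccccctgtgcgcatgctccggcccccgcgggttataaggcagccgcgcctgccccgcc
Slc16a3, chr11:120948817-120949066, + strand: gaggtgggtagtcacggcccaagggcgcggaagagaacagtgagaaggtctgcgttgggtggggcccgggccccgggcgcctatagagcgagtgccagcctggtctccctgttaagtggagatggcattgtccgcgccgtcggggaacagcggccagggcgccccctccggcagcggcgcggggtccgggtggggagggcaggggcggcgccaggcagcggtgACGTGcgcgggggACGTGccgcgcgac
Slc2a1, chr4:119108495-119108744, + strand: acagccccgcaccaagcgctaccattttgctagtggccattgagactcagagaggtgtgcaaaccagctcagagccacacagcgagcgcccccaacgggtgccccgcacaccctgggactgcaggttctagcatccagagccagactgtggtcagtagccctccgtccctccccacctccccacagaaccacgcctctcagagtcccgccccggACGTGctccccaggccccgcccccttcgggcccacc
Slc7a11, chr3:50443614-50443863, - strand: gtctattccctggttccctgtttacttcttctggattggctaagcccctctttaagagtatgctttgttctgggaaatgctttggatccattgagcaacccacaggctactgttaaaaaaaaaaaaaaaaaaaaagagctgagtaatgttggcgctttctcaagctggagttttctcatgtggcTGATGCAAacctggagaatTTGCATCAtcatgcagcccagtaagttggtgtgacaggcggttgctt
In Slc16a1 the run CACGTG holds ACGTG once on each strand, with matches that overlap and begin 200 and 199 bases before the start. Slc16a3 has 2 separate matches, 27 and 14 bases before the start, and Slc2a1 has 1, 36 bases before it. In Slc7a11 TTGCATCA is present once on each strand, beginning 66 and 47 bases before the start.

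The promoter table matched 66 of the 91 transporters, with 87 windows that also take in the first 50 bases of the transcript. ACGTG on either strand was in 26.4% of the transporter windows and in 19.6% of all 32851 windows. It was found for 14 tested transporters, of which 8 fell, 1 (Slc16a12) rose and 5 did not pass. For comparison, 25 of all 63 tested transporters fell and 10 rose. Only 47 of the 63 had a promoter window in which the motif could be found, and their calls were not counted apart. Over all tested genes 30.4% were lower and 28.5% higher. TTGCATCA was in 4.60% of the transporter windows and 0.895% of all windows, that is for Slc7a11, Slc1a4 and Slc7a7, of which the last 2 fell. A match is a run of letters in a short window and no test was made of these shares.

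Among the facilitative sugar carriers of the Slc2a family, 12 genes were listed and 9 tested, of which 3 fell, 2 rose and 4 did not pass. Slc2a1 (gene ID 20525), which encodes GLUT1, the basal glucose carrier of most epithelia, stood at 143, 90.2 and 124 CPM with vehicle and at 73.4, 78.8 and 76.8 CPM with luteolin, each in the order of replicates 1 to 3, as for all genes below. Every luteolin library was below every vehicle library, and vehicle 2 was the nearest to them. The log2 fold change was -0.64 (SE 0.154, edgeR adjusted p = 0.00934). Slc2a1 made up 68.5% to 81.8% of the summed TPM of the family in each library. TPM is transcript abundance scaled for length, so that genes can be compared, and to the same total per library without TMM factors. The summed TPM of the family fell with Slc2a1, from 85.3 to 114.9 with vehicle to 70.2 to 73.9 with luteolin.

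The other called GLUT genes stood far below Slc2a1 in level. Slc2a3 (gene ID 20527), GLUT3, a high-affinity carrier of neurons and leukocytes, was at 1.93, 2.46 and 1.37 CPM with vehicle and 0.645, 0.520 and 0.129 CPM with luteolin. Slc2a13 (gene ID 239606), a proton-coupled myo-inositol carrier, was at 4.20, 7.38 and 3.46 CPM with vehicle and 1.81, 1.88 and 1.16 CPM with luteolin. Both fell, with log2 fold changes of -2.14 (SE 0.494) and -1.63 (SE 0.354) and no overlap between the groups. The part of leukocytes in these decreases was not tested. Slc2a12 (gene ID 353169), GLUT12, went the other way, from 8.99, 10.9 and 9.59 CPM to 18.0, 15.3 and 16.02 CPM (log2 fold change 0.74, SE 0.121, edgeR adjusted p = 0.00178). Its TPM rose from 4.25 ± 0.464 to 7.02 ± 0.679 (SD, n = 3). Slc2a2, GLUT2 of liver and pancreas, passed with a log2 fold change of 1.91 at a level of 0.708 to 1.23 CPM with luteolin. Slc2a4, the insulin-responsive GLUT4 of muscle and fat, did not pass (-0.44). Its highest value, 5.27 CPM, was in vehicle 2, and its log2 fold change was -0.16 without that library. Whether muscle RNA plays a part in its values was not tested.

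Of the sodium-coupled Slc5a carriers 10 were listed and 6 tested, with 1 higher, 1 lower and 4 that did not pass. Slc5a8 (gene ID 216225), which takes up lactate, pyruvate and short-chain fatty acids with sodium, was at 83.9, 96.6 and 113 CPM with vehicle and 159.8, 186 and 166 CPM with luteolin. The groups were well apart, and the log2 fold change was 0.80 (SE 0.114, edgeR adjusted p = 0.000954). Slc5a1 (gene ID 20537), the sodium-glucose carrier SGLT1 of gut and kidney, had a vehicle level of 52.4 ± 19.5 TPM against 28.4 ± 3.76 TPM for Slc5a8 (SD, n = 3), and varied within both groups, at 107, 95.2 and 188 CPM with vehicle and 104, 177 and 231 CPM with luteolin. The ranges overlapped, with luteolin 3 above every vehicle library, and it did not pass (0.39, SE 0.339). Single libraries moved this value, up to 0.73 when vehicle 3 was left out and 0.63 when luteolin 1 was, and down to 0.26 for vehicle 1, 0.21 for vehicle 2 and 0.10 for luteolin 3; it passed in none of these fits. Slc5a3 (gene ID 53881), a sodium-coupled myo-inositol carrier that cells use against osmotic stress, fell from 14.9, 16.4 and 12.4 CPM to 9.41, 8.90 and 6.05 CPM (log2 fold change -0.84, SE 0.194, edgeR adjusted p = 0.00797). Slc2a13, the other tested myo-inositol carrier, also fell.

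The Slc16a family held some of the largest decreases beside carriers that rose. Of 14 listed genes 11 were tested: 5 fell, 2 rose and 4 did not pass. Slc16a1 (gene ID 20501), MCT1, which moves lactate and pyruvate with a proton in either direction, stood at 57.0, 38.1 and 50.3 CPM with vehicle and 6.32, 7.34 and 5.08 CPM with luteolin. The lowest vehicle library was several times the highest luteolin library, and Slc16a1 was 7.75-fold lower (log2 fold change -2.95, SE 0.191, edgeR adjusted p = 6.02e-05). Slc16a3 (gene ID 80879), MCT4, the lactate exporter of glycolytic cells, was at 11.4, 8.66 and 8.997 CPM with vehicle and 2.13, 0.845 and 0.901 CPM with luteolin. It was 7.46-fold lower (log2 fold change -2.90, SE 0.348, edgeR adjusted p = 0.000468), with luteolin 1 the highest of its group. Together MCT1 and MCT4 made up 10.9% to 17.6% of the summed Slc16a TPM with vehicle and 1.46% to 2.38% with luteolin.

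Other monocarboxylate carriers changed less or rose. Slc16a6 (gene ID 104681), MCT7, went from 34.2, 27.9 and 31.7 CPM to 11.6, 16.6 and 15.9 CPM (log2 fold change -1.09, SE 0.148), and Slc16a9 (gene ID 66859), MCT9, from 14.5, 15.04 and 13.2 CPM to 9.67, 10.2 and 10.4 CPM (-0.50, SE 0.106). Neither gene's groups overlapped. Slc16a12 (gene ID 240638), which carries creatine, rose from 60.3, 67.1 and 70.1 CPM to 103, 86.5 and 86.3 CPM (0.48, SE 0.0928, edgeR adjusted p = 0.00360), and Slc16a13, an orphan of the same family, rose by 0.44. The family's most abundant member by TPM, Slc16a11 (gene ID 216867), did not pass, at 45.7, 68.0 and 50.2 CPM with vehicle and 57.8, 70.1 and 67.7 CPM with luteolin (log2 fold change 0.26, SE 0.152). It passed without vehicle 2 (0.44). Slc16a11 and Slc16a12 were the family's most abundant members by TPM, and the summed TPM ran from 159 to 179 with vehicle and from 159.9 to 168 with luteolin. The largest decrease by fold among all transporters was in Slc16a14, a carrier of low level at 1.99, 1.29 and 2.38 CPM with vehicle and 0, 0.195 and 0.0643 CPM with luteolin (log2 fold change -4.33, SE 0.642, between -3.80 and -5.58 with 1 library left out); it lies under the level set for naming and was chosen after its values were seen.

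**Figure D2:**
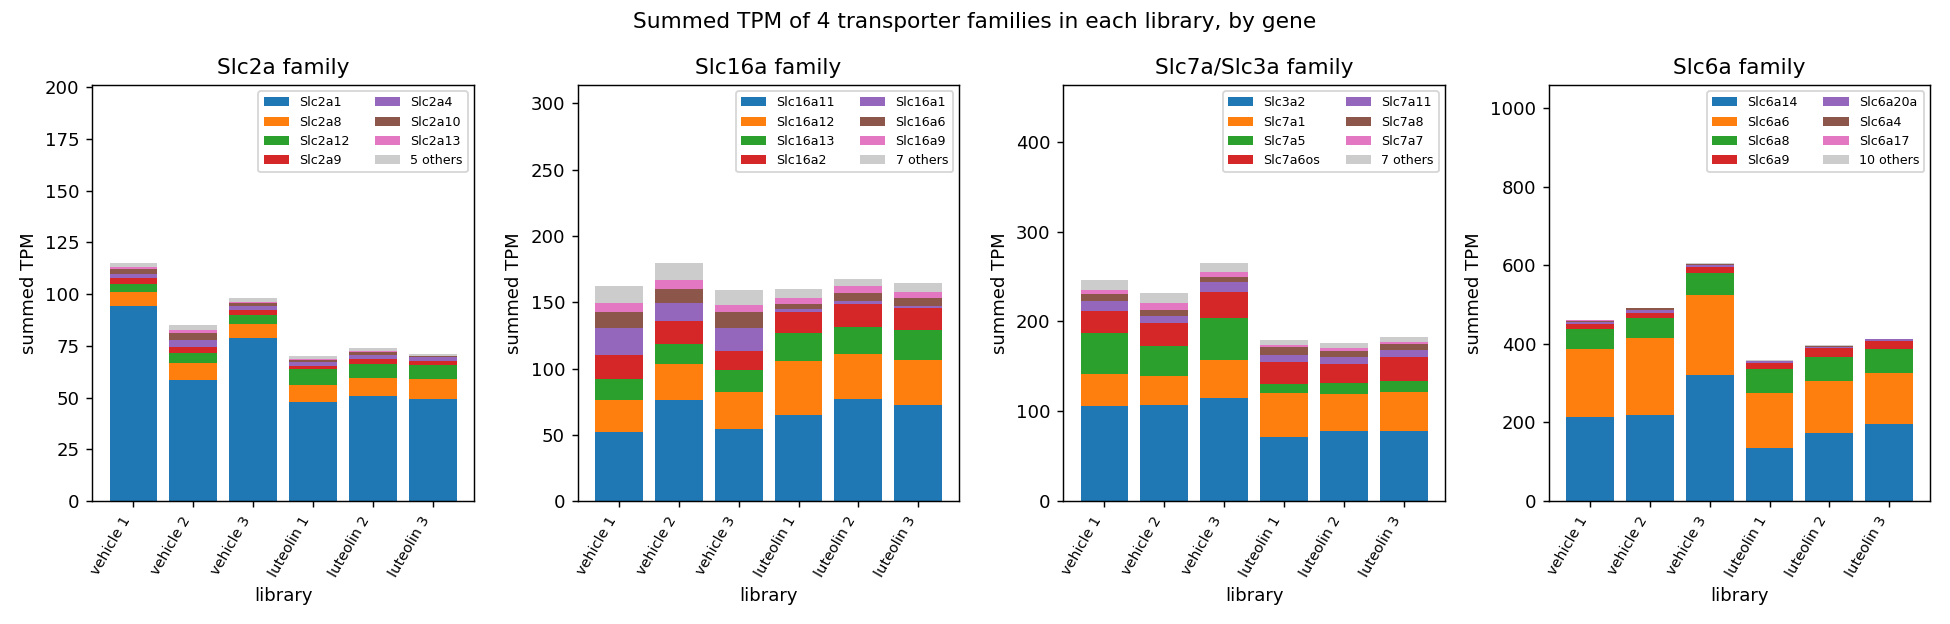
Summed TPM (vertical axis) of the Slc2a, Slc16a, Slc7a with Slc3a, and Slc6a families in each of the 6 libraries (horizontal axis), divided by gene. The Slc16a bars keep a height of 159 to 179 while the Slc16a1 section nearly vanishes with luteolin, and the Slc7a/Slc3a bars shrink.

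Partners of these carriers were read from short lists. For all tested genes the background was 30.4% lower and 28.5% higher. Of the 3 chaperones that bring monocarboxylate carriers to the membrane, Emb, embigin, fell by 0.62 on the log2 scale and Nptn, neuroplastin, by 0.36, while Bsg, basigin, the partner of MCT1 and MCT4, was at 350, 346 and 312 CPM with vehicle and 371, 352 and 330 CPM with luteolin and did not pass (0.061, SE 0.0730). All 4 arrestin-domain genes rose, among them Txnip and Arrdc4, whose proteins promote the removal of GLUT1 from the cell surface. Txnip rose by 0.56 (SE 0.197, edgeR adjusted p = 0.0416), with 310, 538 and 528 CPM in the vehicle libraries. Arrdc4 rose by 0.52 (edgeR adjusted p = 0.000862). Among 7 tested genes of glucose phosphorylation and of lactate and pyruvate handling 4 fell and 1 rose: Ldha, the lactate dehydrogenase chain that favours lactate formation, fell by 0.75, and Mpc2, a subunit of the mitochondrial pyruvate carrier, rose by 0.88 (SE 0.0655). The hexokinases Hk1 and Hk2 each fell by 0.38, and Hk3, the hexokinase of myeloid cells, had a log2 fold change of -4.49.

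Of 7 listed Slc1a genes, carriers of glutamate and of small neutral amino acids, 5 were tested, with 2 lower, 1 higher and 2 that did not pass. Slc1a5 (gene ID 20514), ASCT2, a main route of glutamine into dividing cells, was at 40.4, 33.8 and 35.2 CPM with vehicle and 9.61, 12.999 and 15.1 CPM with luteolin. All luteolin values were less than any vehicle value, and the log2 fold change was -1.54 (SE 0.162, edgeR adjusted p = 0.000284). Slc1a4 (gene ID 55963), ASCT1, its near relative for serine and alanine, went from 31.8, 31.3 and 37.8 CPM to 19.4, 23.3 and 22.1 CPM (-0.64, SE 0.108). The glutamate carrier Slc1a1 (gene ID 20510), EAAT3, was the most abundant of the family and did not pass, at 126, 127 and 196 CPM with vehicle and 170, 192 and 221 CPM with luteolin (0.37, SE 0.186); without vehicle 3 it passed (0.60). Slc1a1 made up 56.8% to 68.0% of the family's TPM with vehicle and 79.9% to 82.1% with luteolin. Slc1a2 (gene ID 20511), EAAT2, the glutamate carrier of astrocytes, passed at a low level, 0.409, 1.76 and 0.655 CPM with vehicle and 3.29, 2.99 and 2.70 CPM with luteolin (1.66, SE 0.476). Its call ended without luteolin 1 (1.58) or luteolin 2 (1.66), and its value was 2.48 without vehicle 2.

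The Slc6a family holds sodium- and chloride-coupled carriers of amino acids, taurine, creatine and neurotransmitters. Of 17 listed genes 8 were tested, and 3 fell, 3 rose and 2 did not pass. Its leading members were among the most abundant transporters in the cornea: Slc6a14 at 252 ± 60.5 TPM and Slc6a6 at 191 ± 17.4 TPM with vehicle (SD, n = 3). Slc6a14 (gene ID 56774), a carrier of neutral and cationic amino acids, was at 452, 465 and 699 CPM with vehicle and 286, 370 and 418 CPM with luteolin. The groups did not overlap, but its decrease (log2 fold change -0.59, SE 0.200, edgeR adjusted p = 0.0370) lost its call without vehicle 3 (-0.37), luteolin 1 (-0.46) or luteolin 2 (-0.63). Slc6a6 (gene ID 21366), the carrier of the osmolyte taurine, fell from 656, 764 and 807 CPM to 538, 519 and 513 CPM (-0.51, SE 0.0854, edgeR adjusted p = 0.00203).

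Slc6a4 (gene ID 15567), the serotonin carrier, was the member of this family with the largest change. It stood at 6.19, 8.66 and 6.02 CPM with vehicle and 0.774, 1.36 and 0.965 CPM with luteolin, 6.69-fold lower (log2 fold change -2.74, SE 0.278, edgeR adjusted p = 0.000243). The creatine carrier Slc6a8 and the glycine carrier Slc6a9 rose by 0.21 and 0.47 on the log2 scale. The reads of Slc6a9 were divided with similar sequence in all 6 libraries, so its value is uncertain. Slc6a19 (gene ID 74338), a neutral amino acid carrier of gut and kidney, was at 0.818, 0.468 and 0.775 CPM with vehicle and 1.68, 2.01 and 1.03 CPM with luteolin (1.19, SE 0.372). These 3 increases kept their direction in every set of 5 libraries, but not their calls. The call of Slc6a19 ended without any 1 library except luteolin 3 (0.96 to 1.32), that of Slc6a8 without vehicle 1 (0.19), luteolin 1 (0.21), luteolin 2 (0.19) or luteolin 3 (0.19), and that of Slc6a9 without vehicle 1 (0.38), luteolin 2 (0.36) or luteolin 3 (0.45). Slc6a8 also lost its call with library sizes only (0.091), on log2(FPKM + 1) (0.086) and on log2(FPKM + 0.1) (0.088). Slc6a9 lost it on both FPKM scales (0.31 and 0.33), and Slc6a19 with DESeq2 (1.1997) and on log2(FPKM + 1) (0.26).

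Several members of the Slc7a family are light chains that work in pairs with a heavy chain, and others, the cationic amino acid carriers, work alone. Of 14 listed genes 11 were tested: 5 fell, 0 rose and 6 did not pass, where the background for increases was 28.5%. At an unadjusted p under 0.05 edgeR had 3 higher. DESeq2 called 1 higher, Slc7a1 (0.28). Limma-trend on log2 FPKM called 1 other gene higher, and Slc7a1 did not pass there (0.16). Slc7a5 (gene ID 20539), LAT1, the exchanger that brings in leucine and other large neutral amino acids, was at 97.5, 72.2 and 106 CPM with vehicle and 23.0, 26.2 and 25.7 CPM with luteolin. The lowest vehicle library was above all luteolin libraries, and LAT1 was 3.68-fold lower (log2 fold change -1.88, SE 0.146, edgeR adjusted p = 0.000104). Its heavy chain Slc3a2 (gene ID 17254), CD98, went from 123, 126 and 139 CPM to 86.3, 94.8 and 97.6 CPM (-0.48, SE 0.0732). The ratio of Slc7a5 to Slc3a2 TPM was 0.425, 0.308 and 0.413 in the vehicle libraries and 0.148, 0.154 and 0.149 in the luteolin libraries, with no overlap.

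Slc7a6 (gene ID 330836), a light chain that exports cationic amino acids in exchange for neutral ones, had the largest decrease of this family. It was at 14.8, 13.4 and 11.9 CPM with vehicle and 1.93, 2.60 and 2.12 CPM with luteolin, 6.01-fold lower (log2 fold change -2.59, SE 0.174, edgeR adjusted p = 6.94e-05). Its relative Slc7a7 (gene ID 20540), which is known from gut, kidney and macrophages, went from 4.44, 7.49 and 4.41 CPM to 2.58, 2.79 and 2.51 CPM (-1.05, SE 0.259), with reads divided in 5 libraries. Slc7a6os, named for lying opposite Slc7a6 and not a carrier itself, came in through its symbol and did not pass (-0.12). Whether counting used strand is not stated in the labels, so reads of this pair might not be told apart. The counts of both genes were whole in every library, with no sign of divided reads.

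Among the cationic amino acid carriers, which take up arginine and lysine, the members differed. Slc7a2 (gene ID 11988), CAT2, which supplies arginine to activated macrophages, was at 9.34, 10.1 and 7.33 CPM with vehicle and 2.51, 2.27 and 1.93 CPM with luteolin (log2 fold change -1.99, SE 0.198, edgeR adjusted p = 0.000227). Slc7a1 (gene ID 11987), CAT1, the general carrier and by TPM the more abundant, was at 162, 149.9 and 199 CPM with vehicle and 221, 196 and 202 CPM with luteolin and did not pass (0.27, SE 0.111), though it did without vehicle 3 (0.38). Slc7a11, which exchanges cystine for glutamate and supplies glutathione synthesis, did not pass either (-0.33, SE 0.128, edgeR adjusted p = 0.0573), but passed as lower with DESeq2 (-0.33), with library sizes only (-0.45), on log2(FPKM + 1) (-0.37) and without vehicle 2 (-0.47). Vehicle 2, at 42.9 CPM of Slc7a11, lay within the luteolin range of 40.9 to 44.4 CPM, below vehicle 1 at 59.0 and vehicle 3 at 59.6 CPM.

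**Figure D3:**
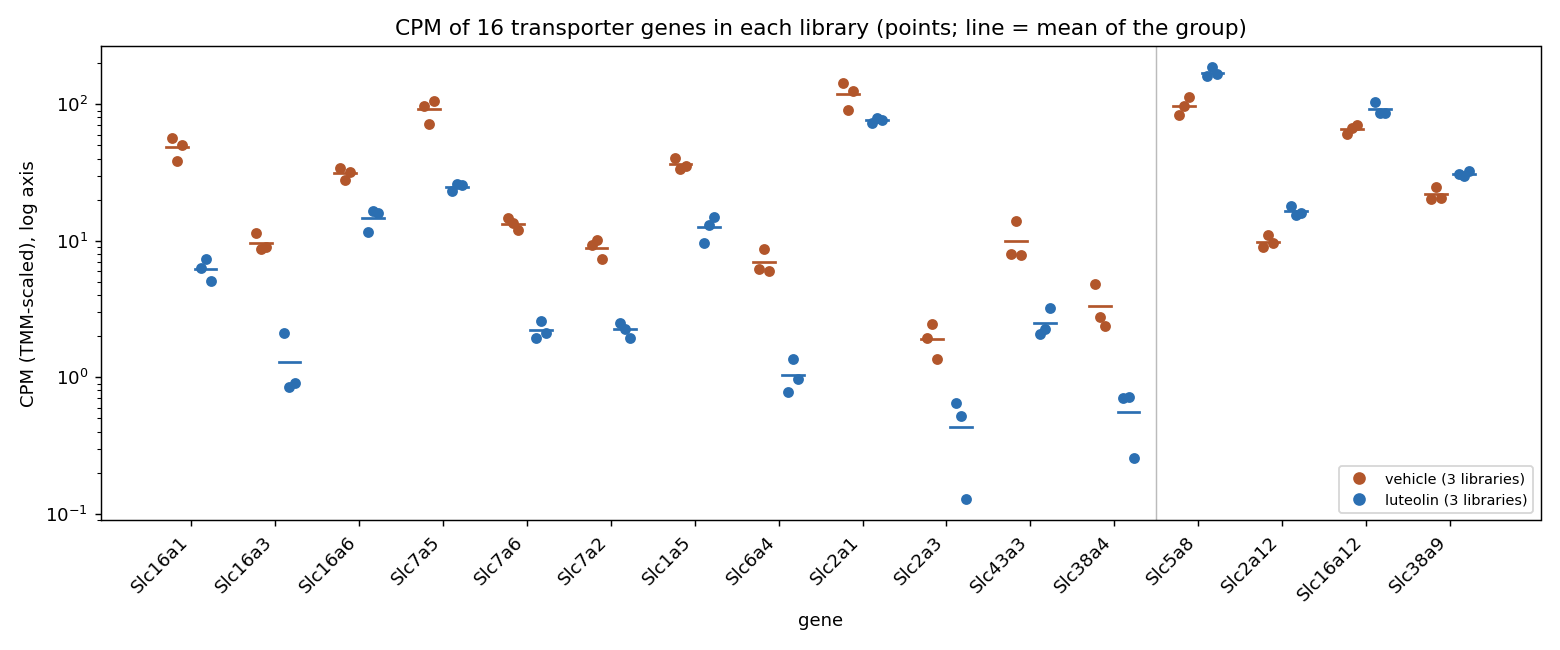
CPM on a log axis (vertical) of 16 transporter genes (horizontal) in each vehicle and luteolin library, with a line at each group's mean. The 12 genes left of the grey line fell and the 4 to its right rose, and in each the libraries of both groups do not overlap.

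The remaining amino acid families followed a similar division. Of 10 listed Slc38a genes 8 were tested, with 3 lower, 1 higher and 4 that did not pass. Slc38a2 (gene ID 67760), SNAT2, the sodium-coupled carrier of glutamine and alanine that responds to amino acid lack and to osmotic stress, had the highest level at 251 ± 24.5 TPM with vehicle (SD, n = 3). It went from 641, 689 and 799 CPM to 506, 465 and 460 CPM (log2 fold change -0.57, SE 0.0929, edgeR adjusted p = 0.00171), a decrease seen in every luteolin library. Slc38a4 (gene ID 69354), SNAT4, was at 4.85, 2.751 and 2.38 CPM with vehicle and 0.709, 0.715 and 0.257 CPM with luteolin (-2.55, SE 0.450), and Slc38a11 also fell (-2.16). Slc38a9 (gene ID 268706), the lysosomal arginine sensor that signals to mTORC1, rose from 20.3, 24.8 and 20.6 CPM to 31.1, 29.6 and 32.5 CPM (0.50, SE 0.0983, edgeR adjusted p = 0.00385). Slc38a6 (gene ID 625098), at 111, 98.98 and 83.4 CPM with vehicle and 106, 97.3 and 98.9 CPM with luteolin, did not pass, had divided reads in all 6 libraries, and took either sign between scalings (0.042 under TMM scaling, -0.075 under plain library sizes).

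Of 3 Slc43a genes 2 fell and 1 did not pass. Slc43a3 (gene ID 58207), which carries purine nucleobases, was at 8.001, 13.9 and 7.86 CPM with vehicle and 2.06, 2.27 and 3.22 CPM with luteolin (log2 fold change -1.98, SE 0.298, edgeR adjusted p = 0.00123). Slc43a1 (gene ID 72401), LAT3, a uniporter of branched-chain amino acids, was at 1.46, 2.05 and 1.37 CPM with vehicle and 0.516, 0.260 and 0.579 CPM with luteolin (-1.83, SE 0.373). Neither overlapped between groups. Slc43a2 (gene ID 215113), LAT4, the most abundant of the family, was at 43.1, 40.8 and 43.1 CPM with vehicle and 36.5, 43.8 and 35.4 CPM with luteolin (-0.13, SE 0.0920); it passed as lower without luteolin 2 (-0.25) and with library sizes only (-0.25). Of the proton-coupled Slc36a carriers 4 were listed and 2 tested: the lysosomal Slc36a1 (gene ID 215335) fell from 19.9, 18.4 and 17.04 CPM to 11.4, 13.4 and 13.6 CPM (-0.52, SE 0.112), and Slc36a4 (gene ID 234967), at 28.3, 31.7 and 27.2 CPM with vehicle and 30.8, 28.2 and 27.3 CPM with luteolin, did not pass (-0.014, SE 0.0879).

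Genes that govern or use amino acid supply were read from 3 further lists. The shares over all tested genes, for comparison, were 30.4% lower and 28.5% higher, with a median log2 fold change of -0.02. Of 10 regulators and targets of the amino acid response 5 fell, 1 rose and 4 did not pass (median log2 fold change -0.36). Asns, asparagine synthetase, was at 43.0, 26.4 and 33.8 CPM with vehicle and 2.84, 6.04 and 5.53 CPM with luteolin (-2.84, SE 0.288), and Phgdh, the first enzyme of serine synthesis, fell by 0.84. The sensor kinase gene Eif2ak4, GCN2, rose by 0.59, and the factor Atf4 itself did not pass (-0.14). Among 18 genes of amino acid signalling to mTORC1 6 rose, 3 fell and 9 did not pass (median -0.01), with Sesn1 (0.49) and Lamtor5 (-0.43) the furthest apart. Of 12 genes of glutamine, glutamate and cystine use 3 rose and 5 fell (median -0.20): Cbs, cystathionine beta-synthase, rose by 1.42, while Gls2, liver-type glutaminase, fell by 2.53 and Got1, cytosolic aspartate aminotransferase, by 1.33.

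Level and size of change were set side by side. With a line at a vehicle mean of 20 TPM, drawn after the values were seen, 17 of the tested transporters lay at or above it and 46 below. Of the 17 abundant genes 2, Slc7a5 and Slc1a5, changed by over 1 on the log2 scale with an adjusted p under 0.05 (11.8%), and their log2 fold changes ran from -1.88 to 0.80. Of the 46 others 17 did (37.0%), and the one nearest below the line was Slc16a1 at 17.2 TPM (-2.95), which a slightly lower line would place among the abundant genes. Over all tested genes the same shares were 10.3% at or above the line and 26.2% below. The summed TPM of all 91 genes was 1504 to 1742 with vehicle and 1247 to 1359 with luteolin.

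**Figure D4:**
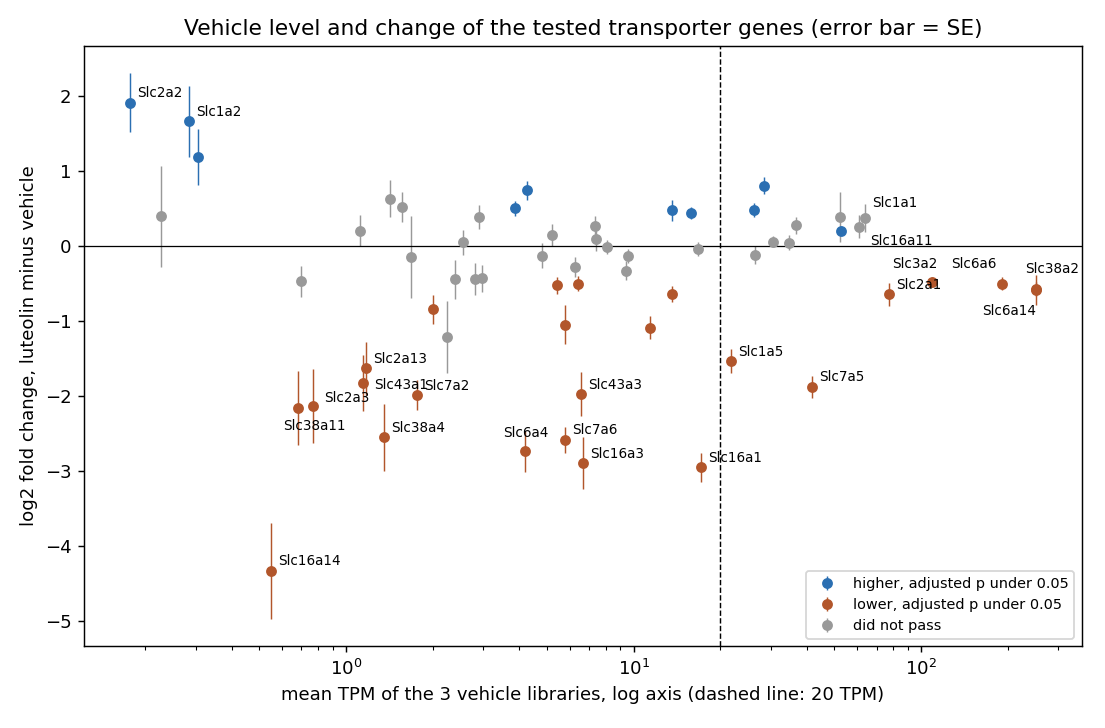
Mean TPM of the 3 vehicle libraries (horizontal log axis) against the log2 fold change (vertical axis, error bar SE) of the 63 tested transporters, coloured by the edgeR call, with a dashed line at 20 TPM. Slc38a2, Slc6a14 and Slc6a6, the most abundant, lie between -0.51 and -0.59, and the genes below -2 all lie left of the line, Slc16a1 at 17.2 TPM closest to it.

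The 28 transporters left out of the test had at most 1.40 CPM in any library, a level reached by the glutamine carrier Slc38a3 in vehicle 2. They were 3 of the Slc2a, 4 of the Slc5a, 3 of the Slc16a, 2 of the Slc1a, 9 of the Slc6a, 3 of the Slc7a with Slc3a, 2 of the Slc36a and 2 of the Slc38a genes. Among them were Slc2a5, the fructose carrier GLUT5 (48 counts over the 6 libraries), Slc3a1, the heavy chain of the renal cystine carrier (19.65 estimated counts), and the noradrenaline and dopamine carriers Slc6a2 (23 counts) and Slc6a3 (30 counts).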

How the data were processed

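Per the labels' protocols, total RNA of whole cornea was sequenced with the TruSeq RNA kit; the 6 libraries were grouped by title. Bowtie2 2.2.5, RSEM 1.2.12 and mouse build mm9 are named, per the submitters' processing notes, with no role; the annotation is not stated. The deposited estimated counts (read counts per the file headers) were not whole in 10.3% to 10.8% of values (over 0.001 from a whole number). A second deposited set is a normalized signal that differs from the counts by 1 factor per library (0.937 to 1.06); it was used only for that check. The deposited FPKM and TPM values are, per the file headers, scaled for length and depth. The 8 group averages were not used.

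Counts were rounded and tested with edgeR 4.0.16 (R 4.3.3) over the whole table: filterByExpr (minimum count 10, total 15) kept 13838 genes, with TMM factors, the quasi-likelihood test without a replicate block, and Benjamini-Hochberg adjustment over all tested genes. SE is the log2 fold change divided by the square root of F. The code was tested on simulated data. No 2 libraries of a group agreed within counting error (chi-square over its degrees of freedom 6.30 to 30.3). Named with every library's value were, per family, up to 4 called genes of at least 1 CPM with the largest change and the 2 of highest CPM; other members given by name, and genes drawn in the plot of CPM, were chosen after their values were seen. The members and lists were chosen with earlier results of these data known. Promoter sequences are from RefSeq, build GRCm38.p6. Alternatives were DESeq2 1.42.0, other scaling and filters, the replicate block, limma 3.58.1 (limma-trend) on log2(FPKM + 1) or log2(FPKM + 0.1), and leaving out each library.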

Additional observations from a re-analysis of the deposited data

How the results depend on the processing

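Counts of transporters called stayed within 1.5 times under DESeq2, other scaling, other filters and limma-trend on log2 FPKM (8 to 10 higher, 25 to 31 lower). Leaving out each library gave 6 to 11 higher, with 6 without luteolin 2, and 25 to 28 lower. The median log2 fold change of the transporters was -0.39 with library sizes only, -0.43 with no filter, which adds 28 genes, -0.39 with at least 1 CPM in 3 libraries, -0.36 on log2(FPKM + 0.1), and -0.37 to -0.16 with a library left out. Log2(FPKM + 1) gives smaller changes for genes of low level by its construction (Slc2a3 -0.48, Slc38a4 -0.76). Slc38a6 and Slc36a4, both near 0, changed sign without passing: Slc38a6, -0.075 with library sizes only, -0.064 on log2(FPKM + 1), -0.066 on log2(FPKM + 0.1) and -0.078 to 0.14 with a library left out; and Slc36a4, -0.080 to 0.052 with a library left out. The cause was not tested.

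Libraries of both groups share only a replicate number: deviations of same-numbered libraries from their group means correlated at -0.15, 0.03 and 0.01 across genes. With the replicate number as a block 11 transporters were higher and 26 lower, and 3790 genes were higher and 4144 lower in all; Slc6a19 no longer passed (1.17), while Slc16a11 (0.27) and Slc1a1 (0.40) passed. Genes under about 1 CPM rest on few reads per library, which limits what can be called there.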

Other observations

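Solute carriers outside the chosen families that move related substrates were read from a list of 20. Among the 14 that could be tested there were 7 increases and 3 decreases, with a median log2 fold change of 0.21. The background was 28.5% higher and 30.4% lower over all tested genes, with a median of -0.02. Slc15a2, a proton-coupled carrier of small peptides, rose by 1.07 (SE 0.203), and Slc17a5, the lysosomal exporter of sialic acid, by 1.06 (SE 0.0913). Ctns, the lysosomal cystine exporter cystinosin, rose by 0.42. Slc15a3, a lysosomal peptide and histidine carrier of immune cells, fell by 4.10 (SE 0.452), and Slc37a2, a sugar phosphate exchanger of macrophages, by 1.87 (SE 0.209). Those 2 decreases stood in the libraries in which 10 of 12 macrophage and dendritic cell markers were lower, and the part of those cells in them was not tested.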
